A study of Homo sapiens with 9 samples.

Results

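Laminins are the sheet-forming glycoproteins of basement membranes, and each secreted molecule is a heterotrimer of 1 α, 1 β and 1 γ chain encoded by separate genes. The members described here are the genes of the laminin chains LAMA1, LAMA2, LAMA3, LAMA4, LAMA5, LAMB1, LAMB2, LAMB3 and LAMC1, matched by gene symbol in the deposited tables. They are 9 of the 27111 genes listed, and all 9 were among the 17108 genes that passed the expression filter. The chains LAMB4 and LAMC3 are not members, and they are used only where a trimer needs them.

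The α chain carries the main binding sites for cell-surface receptors, the γ chain is shared by many trimers, and trimers are named by their chain numbers in α, β and γ order. Laminin-332, which holds the products of LAMA3 and LAMB3, anchors basal epithelial cells through α6β4 integrin and hemidesmosomes. Laminins with the α5 chain are widespread in adult basement membranes, α4 laminins are typical of endothelium, muscle and mesenchyme, α2 laminins of muscle and nerve, and α1 laminins of the early embryo. In normal prostate, laminin-332 lies beneath the basal cells, and it is known to be lost in much of prostate carcinoma.

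PC-3, an established prostate cancer line of human origin, was infected with lentiviral particles holding an empty vector (Empty) or the murine long (NF-YAl) or short (NF-YAs) isoform of NF-YA, the DNA-binding subunit of the CCAAT-binding factor NF-Y, and selected with puromycin. All groups kept their endogenous NFYA. Cells were grown as multicellular tumor spheroids (MTSs) in medium with Matrigel, a matrix preparation that itself contains laminin protein, and pooled MTSs gave 3 libraries per line, with replicate letters A, B and D for NF-YAl and A to C for the other two lines. The libraries come from independent experiments per the methods, and each line is a selected population, so that p-values cover the spread between cultures of 1 transduced population per group. As these are bulk samples, fewer cells of a type and less RNA per cell cannot be told apart.

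The libraries held 18076979 to 27163976 expected counts in total. NFYA was at 91.7 ± 4.24 CPM (counts relative to a TMM-scaled library total) for Empty, 341 ± 49.2 for NF-YAl and 260 ± 5.71 for NF-YAs MTSs (mean ± SD, n = 3), with reads of the murine transgene included as far as they aligned to human transcripts. Of the line's markers, KRT8, KRT18, VIM and CD44 were at 70.4 TPM (transcripts relative to the library's total, corrected for length) or more in every library, EPCAM was at 0.61 to 6.68 TPM, and KLK3 was at 0 in all libraries. The summed TPM of 7 markers of endothelium, leukocytes and fibroblasts was 37.3 to 44.1 for Empty, 16.8 to 45.3 for NF-YAl and 23.5 to 26.9 for NF-YAs MTSs. CD68 gave most of this sum. PECAM1, an endothelial marker, was at 5.49 to 7.32 CPM for Empty, 4.82 to 5.95 for NF-YAl and 1.59 to 2.12 for NF-YAs MTSs, while CDH5, PTPRC, DCN, LUM and PDGFRB each stayed at or below 0.54 TPM. The part of other cells in the LAMA4 values was not tested. Library D of NF-YAl stands apart in scale. Its TPM were a median of 1.98 times its CPM per kb of effective length, against 1.01 to 1.38 times in the other 8 libraries. Levels are therefore compared between libraries as CPM, and TPM are used within a library, where they allow chains of different length to be compared.

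NF-Y binds the CCAAT box, so start sites of LAMB3, LAMA3 and LAMA4 are shown first. These are the members that differed between NF-YAl and Empty MTSs at an adjusted p under 0.01 by edgeR. The RefSeq table of promoter windows (GRCh38.p14, 250 bases before to 50 after a start site) held 10 windows for 8 of the 9 members. It held none for LAMA1, which had the largest log2FC of the members, 2.97 in NF-YAs over Empty. Both strands were searched for CCAAT, which reads ATTGG on the other strand. They were also searched for the AP-1 type motif TGACTCA. On the other strand it reads TGAGTCA. The capitals mark these letters. The 2 motifs share no letters in the windows shown. The second motif was chosen after the values and sequences were seen. LAMB3 had 3 windows, of which the innermost is printed, at chr1:209651325-209651624 on the minus strand, 1051 bases inside the start of the annotated gene. The LAMA3 window, chr18:23872770-23873069 on the plus strand, lies 183567 bases inside the gene, so that it belongs to an internal start site. No window covered the start of the LAMA3 gene. The LAMA4 window, chr6:112254518-112254817 on the minus strand, lies 418 bases inside the gene. It is given as that of the chain that rose in both lines.
LAMB3: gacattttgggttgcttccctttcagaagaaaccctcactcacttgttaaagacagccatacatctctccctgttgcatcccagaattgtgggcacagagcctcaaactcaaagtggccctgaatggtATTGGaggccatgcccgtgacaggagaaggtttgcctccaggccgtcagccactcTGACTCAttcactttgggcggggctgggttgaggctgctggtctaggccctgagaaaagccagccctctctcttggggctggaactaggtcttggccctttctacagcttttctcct
LAMA3: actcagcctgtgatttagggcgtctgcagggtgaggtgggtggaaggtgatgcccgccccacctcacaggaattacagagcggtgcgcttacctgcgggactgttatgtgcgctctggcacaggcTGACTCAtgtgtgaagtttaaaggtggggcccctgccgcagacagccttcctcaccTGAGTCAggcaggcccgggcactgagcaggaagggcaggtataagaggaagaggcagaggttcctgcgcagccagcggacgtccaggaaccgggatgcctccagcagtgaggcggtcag
LAMA4: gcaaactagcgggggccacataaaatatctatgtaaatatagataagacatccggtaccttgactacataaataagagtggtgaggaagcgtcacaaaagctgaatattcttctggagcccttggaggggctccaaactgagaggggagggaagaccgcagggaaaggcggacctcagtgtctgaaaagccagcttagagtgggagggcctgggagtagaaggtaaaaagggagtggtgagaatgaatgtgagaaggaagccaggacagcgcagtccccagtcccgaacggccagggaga
CCAAT was found in 1 of the 10 member windows, and 34.6% of all 35116 windows held it. This was the LAMB3 window printed above, where ATTGG begins at position -122 from the start site. The AP-1 type motif was found in 2 of the 10 member windows, against 4.95% of all windows. These were the printed windows of LAMA3, with the motif at -125 and -69, and of LAMB3, with it at -67. The other LAMB3 windows, including that at the start of the gene, held neither motif. A match describes letters in a window of this length and no binding was measured.

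Over Empty, NF-YAl MTSs had 1 member higher and 2 lower at an adjusted p under 0.01 in the quasi-likelihood test of edgeR, Benjamini-Hochberg adjusted over all tested genes. LAMA4 was higher, and LAMA3 and LAMB3 were lower. Of all tested genes, 10.02% were higher and 9.54% lower by this rule. With |log2FC| above 1 as well, the rule for a differentially expressed gene (DEG), LAMA4 was up-regulated and LAMB3 down-regulated, beside 4.76% and 3.50% of all tested genes. In NF-YAs MTSs, 3 members were higher (LAMA1, LAMA4 and LAMB1) and 1 was lower (LAMA3) than in Empty, against 12.1% and 10.5% of all tested genes. LAMA1 and LAMA4 were DEGs, where 5.44% of all tested genes were up-regulated DEGs and 3.90% were down-regulated DEGs. In the direct comparison, 3 members were lower in NF-YAl than in NF-YAs (LAMA1, LAMB1 and LAMB3) and 0 were higher, against 6.25% and 4.70% of all tested genes, with 1 higher at an unadjusted p under 0.05 and 0 by DESeq2. LAMA1 and LAMB3 passed the DEG rule, beside 2.86% of tested genes lower and 1.74% higher by it. The median log2FC of the 9 members was 0.32 for NF-YAl and 0.42 for NF-YAs over Empty, where the median of all tested genes was 0.01 and -0.0026. Both lines were compared with the same Empty libraries.

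Among the α chains, LAMA3 encodes α3, the receptor-binding chain of laminin-332. In GRCh37 it lies on the plus strand of chromosome 18, from 21269417 to 21536186. Its level was 506, 569 and 574 CPM for Empty A, B and C, 351, 332.3 and 238 CPM for NF-YAl A, B and D, and 282, 259 and 298 CPM for NF-YAs A, B and C. All libraries of both lines lay below all Empty libraries, and the lines overlapped each other. LAMA3 fell in NF-YAl with a log2FC of -0.84 (SE 0.136, adjusted p = 0.000578 by edgeR). It fell in NF-YAs with a log2FC of -0.98 (SE 0.136, adjusted p = 0.000178 by edgeR). NF-YAl against NF-YAs gave 0.14 (SE 0.135, adjusted p = 0.498 by edgeR).

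LAMA4 encodes α4, the chain of endothelial and mesenchymal laminins, and lies on the minus strand of chromosome 6, from 112429134 to 112576141 in GRCh37. It was at 6.46, 6.39 and 7.75 CPM for Empty, 20.4, 24.0 and 21.5 CPM for NF-YAl and 23.3, 22.6 and 29.2 CPM for NF-YAs MTSs. Every library of both lines was above every Empty library. LAMA4 rose in NF-YAl with a log2FC of 1.68 (SE 0.142, adjusted p = 7.08e-06 by edgeR). In NF-YAs it rose with a log2FC of 1.86 (SE 0.142, adjusted p = 2.67e-06 by edgeR). The lines differed by -0.19 (SE 0.134, adjusted p = 0.336 by edgeR). An antisense gene, LAMA4-AS1, overlaps it on the opposite strand, and whether reads were counted by strand is not given in the sources used here, so that reads of both genes cannot be told apart.

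LAMA5 encodes α5, the chain of laminin-511 and laminin-521. It lies on the minus strand of chromosome 20, from 60883011 to 60942368 in GRCh37, and overlaps ADRM1 and LAMA5-AS1 on the opposite strand. The LAMA5 level was 860, 779 and 705 CPM for Empty A, B and C, 1131, 1120 and 680 CPM for NF-YAl A, B and D, and 841, 978 and 842 CPM for NF-YAs A, B and C. NF-YAl A and B were the highest libraries and NF-YAl D the lowest, so that the groups overlapped. The log2FC over Empty was 0.32 for NF-YAl (SE 0.172, adjusted p = 0.178 by edgeR) and 0.18 for NF-YAs (SE 0.172, adjusted p = 0.441 by edgeR). Without library D of NF-YAl, the log2FC in NF-YAl was 0.53 (adjusted p = 0.00295 by edgeR), so that library D decides the call.

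LAMA1 encodes α1, the chain of the laminins of the early embryo and the chief laminin α chain of Matrigel. It lies on the minus strand of chromosome 18, from 6941741 to 7117796 in GRCh37. It was low throughout, at 0.587, 0.238 and 0.511 CPM for Empty, 0.636, 0.940 and 1.07 CPM for NF-YAl and 3.39, 2.64 and 4.51 CPM for NF-YAs MTSs. The Empty libraries held 6 to 14 expected counts of LAMA1. All NF-YAs libraries were above all others, and LAMA1 rose in NF-YAs over Empty with a log2FC of 2.97 (SE 0.353, adjusted p = 5.74e-05 by edgeR). In NF-YAl the log2FC was 0.996 over Empty (SE 0.388, adjusted p = 0.0691 by edgeR), with the 3 NF-YAl libraries above the 3 Empty libraries. NF-YAl was lower than NF-YAs by a log2FC of -1.97 (SE 0.327, adjusted p = 0.00135 by edgeR). Even in NF-YAs MTSs the TPM of LAMA1 were 0.34 to 0.55.

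LAMA2 encodes α2, the muscle and nerve chain. It lies on the plus strand of chromosome 6, from 129204283 to 129837711 in GRCh37. LAMA2 was at 1.17, 1.15 and 1.46 CPM for Empty, 1.22, 1.47 and 1.27 CPM for NF-YAl and 1.94, 1.89 and 2.16 CPM for NF-YAs MTSs. The NF-YAs libraries were above all others, with a log2FC over Empty of 0.66 (SE 0.232, adjusted p = 0.0427 by edgeR), which did not pass 0.01. NF-YAl over Empty gave 0.07 (SE 0.238, adjusted p = 0.858 by edgeR).

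Of the β chains, LAMB3 encodes β3, which is found in laminin-332 and pairs with few other chains. It lies on the minus strand of chromosome 1, from 209788215 to 209825770 in GRCh37. It was at 145, 191 and 186 CPM for Empty A, B and C, 40.6, 57.5 and 49.4 CPM for NF-YAl A, B and D, and 95.6, 150 and 128 CPM for NF-YAs A, B and C. The NF-YAl libraries were below all others, and NF-YAs B lay within the range of Empty. LAMB3 fell in NF-YAl with a log2FC of -1.82 (SE 0.178, adjusted p = 1.72e-05 by edgeR). In NF-YAs the log2FC was -0.48 (SE 0.172, adjusted p = 0.0451 by edgeR), which did not pass 0.01. With the replicate letter as a block it passed (adjusted p = 0.000395 by edgeR). Tested directly, NF-YAl against NF-YAs gave -1.34 (SE 0.176, adjusted p = 0.000334 by edgeR), so that the responses of the lines differed.

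LAMB1 and LAMB2 encode β1 and β2, the alternative partners of α5 and α4 in laminin-511, laminin-521, laminin-411 and laminin-421. LAMB1 lies on the minus strand of chromosome 7, from 107564244 to 107643658 in GRCh37, where it overlaps DLD on the opposite strand. Its level was 292, 280 and 291 CPM for Empty, 264, 278 and 272 CPM for NF-YAl and 390, 390 and 377 CPM for NF-YAs MTSs. The NF-YAs libraries were above all others and the libraries of each line lay close together. LAMB1 rose in NF-YAs relative to Empty by a log2FC of 0.42 (SE 0.0816, adjusted p = 0.00176 by edgeR), and was lower in NF-YAl than in NF-YAs by -0.51 (SE 0.0817, adjusted p = 0.00117 by edgeR). In NF-YAl over Empty it was -0.08 (SE 0.0815, adjusted p = 0.467 by edgeR). Without Empty C the adjusted p of NF-YAs against Empty was 0.0109 by edgeR, and without NF-YAs B it was 0.0112.

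LAMB2, on the minus strand of chromosome 3 from 49158547 to 49170551 in GRCh37, was at 293, 394 and 343 CPM for Empty A, B and C and at 711, 544 and 373 CPM for NF-YAl A, B and D. It was at 377, 417 and 422.5 CPM in NF-YAs MTSs. NF-YAl A and B were the highest libraries, whereas NF-YAl D lay within the Empty range. The log2FC was 0.66 for NF-YAl (SE 0.190, adjusted p = 0.0193 by edgeR) and 0.24 for NF-YAs (SE 0.189, adjusted p = 0.353 by edgeR) over Empty. Without library D, NF-YAl gave 0.87 over Empty (adjusted p = 0.000362 by edgeR) and 0.63 over NF-YAs (adjusted p = 0.00508 by edgeR). With all libraries, the adjusted p of NF-YAl against Empty was 0.00333 by DESeq2 and 0.00868 by edgeR with no filter on low counts, so that the call depends on the tool, the filter and 1 library.

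LAMC1, the member among the γ chains, encodes γ1, the γ chain of most laminins. It lies on the plus strand of chromosome 1, from 182992555 to 183114727 in GRCh37, and LAMC1-AS1 overlaps it on the opposite strand. Its level was 123, 124 and 131 CPM for Empty, 185, 163 and 135 CPM for NF-YAl and 169, 167 and 171 CPM for NF-YAs MTSs. All libraries of both lines were above all Empty libraries, NF-YAl D by little. Neither log2FC passed 0.01, at 0.35 for NF-YAl (SE 0.110, adjusted p = 0.0279 by edgeR) and 0.42 for NF-YAs (SE 0.110, adjusted p = 0.0104 by edgeR). For NF-YAs the adjusted p was 0.00200 by DESeq2, 0.00898 by edgeR with no filter and 0.000169 by edgeR on the 2 groups alone, and NF-YAl without library D gave a log2FC of 0.47 (adjusted p = 0.00118 by edgeR). With the replicate letter as a block, the adjusted p was 0.00166 for NF-YAl and 0.00112 for NF-YAs by edgeR.

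Compared per length within a line, the order of the chains differed between lines. In Empty MTSs the members ran from LAMA3 (86.5 ± 8.75 TPM) through LAMA5 (78.8 ± 20.7), LAMB2 (67.5 ± 5.46), LAMB1 (57.0 ± 10.2), LAMB3 (48.9 ± 1.27) and LAMC1 (18.3 ± 2.58) to LAMA4 (1.56 ± 0.217), LAMA2 (0.147 ± 0.0252) and LAMA1 (0.0533 ± 0.0252) (SD, n = 3). By range over the libraries, LAMA5 overlapped LAMA3, LAMB2 and LAMB1, and LAMB2 overlapped LAMB1. Within each Empty library, LAMA5 and LAMB2 were above LAMB1. In NF-YAl MTSs the order was LAMB2 (129 ± 27.2 TPM), LAMA5 (116 ± 10.2), LAMB1 (68.0 ± 23.3), LAMA3 (58.6 ± 10.9), LAMC1 (28.9 ± 6.20), LAMB3 (17.5 ± 6.18) and LAMA4 (7.57 ± 2.46), with LAMA2 and LAMA1 at 0.193 and 0.133 TPM. There, by range, LAMB2 overlapped LAMA5, LAMB1 overlapped LAMA3, LAMC1 overlapped LAMB3, and LAMA2 overlapped LAMA1. Within each NF-YAl library, LAMC1 was above LAMB3 and LAMA2 above LAMA1. In NF-YAs MTSs the order was LAMA5 (98.9 ± 10.6 TPM), LAMB2 (90.1 ± 2.70), LAMB1 (85.3 ± 8.80), LAMA3 (48.0 ± 3.98), LAMB3 (39.2 ± 6.94), LAMC1 (27.5 ± 2.33) and LAMA4 (6.74 ± 0.499), followed by LAMA1 at 0.460 and LAMA2 at 0.260 TPM. The first 3 overlapped one another by range, and LAMA3 overlapped LAMB3, while LAMA5 was above LAMB1 within each NF-YAs library. LAMB3 thus stood above LAMC1 in all Empty and NF-YAs libraries and below it in all 3 NF-YAl libraries. The TPM of LAMB3 over that of LAMC1 was 2.31, 3.02 and 2.77 for Empty A, B and C, 0.424, 0.688 and 0.705 for NF-YAl A, B and D, and 1.11, 1.76 and 1.46 for NF-YAs A, B and C. The 3 lines were apart in this ratio, which was computed after the levels were seen.

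The make-up of the α and β chains was followed as shares of the class's summed TPM, which do not depend on the scale of a library. LAMA3 made up 52.2 ± 3.72% of α-chain TPM for Empty, 31.9 ± 2.41% for NF-YAl and 31.2 ± 2.62% for NF-YAs MTSs (SD, n = 3), with no overlap between either line and Empty. LAMA5 made up 46.7 ± 3.83%, 63.9 ± 3.35% and 64.0 ± 3.02%, and LAMA4 0.944 ± 0.163%, 4.10 ± 0.988% and 4.37 ± 0.301%. The ratio of LAMA3 to LAMA5 was accordingly 1.13 ± 0.167 for Empty, 0.501 ± 0.0653 for NF-YAl and 0.489 ± 0.0626 for NF-YAs MTSs. Of the β chains, LAMB3 made up 27.7 ± 1.98% for Empty, 7.97 ± 2.22% for NF-YAl and 18.0 ± 2.96% for NF-YAs MTSs, with all 3 lines apart. LAMB2 took 38.1 ± 2.57%, 59.1 ± 8.02% and 41.4 ± 1.04%, and LAMB1 32.0 ± 3.30%, 30.6 ± 6.19% and 39.1 ± 2.76%. LAMB4, which is not a member, gave the small remainder. For each pair of groups without overlap p was 0.1 by a two-sided exact permutation test, the smallest that 3 libraries against 3 allow, or 0.142 adjusted over 27 tests, so that no share could reach p = 0.05 in this design.

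Which trimers had the RNA for all of their chains was asked for 13 known chain combinations, those with γ1 or γ3. On the scale of CPM per kb, the β chains summed to 159 ± 13.1 for Empty, 159.6 ± 29.4 for NF-YAl and 174 ± 10.5 for NF-YAs MTSs, and the α chains to 148 ± 4.14, 135 ± 29.8 and 123 ± 5.30 (SD, n = 3). With all chains at 1 TPM or more in all 3 libraries, 6 combinations could form in Empty, and 8 in each of NF-YAl and NF-YAs MTSs. The 6 were laminin-311, laminin-321, laminin-411, laminin-421, laminin-511 and laminin-521. Laminin-423 and laminin-523 were added in both lines only because LAMC3 was at 0.97 TPM in Empty C. On the scale of CPM per kb, LAMC3 was lower in NF-YAl D (0.731) than in Empty C (0.959). For NF-YAl this addition thus depends on the TPM scale of library D. Without Empty C, or at 0.5 TPM, Empty also had 8. At 5 TPM, 4 combinations were left in Empty and 6 in each of the lines. Gene TPM of LAMA4 include short transcripts that cannot encode a chain, and the full-length ones alone were at 1.15, 0.88 and 1.02 TPM in Empty A, B and C. Counted from these at 1 TPM, laminin-411 and laminin-421 missed the threshold in Empty, which then had 4 combinations against 8 in each line. This alternative was chosen after the data were seen. Full-length LAMA4 was at 3.24, 3.29 and 5.46 TPM in NF-YAl A, B and D, and at 4.18, 3.63 and 4.53 TPM in NF-YAs A, B and C. By this count laminin-411 and laminin-421 missed 5 TPM in Empty and in both lines, and met 0.5 TPM in all of them. The 5 combinations with α1 or α2 failed in all lines because LAMA1 and LAMA2 stayed at or below 0.55 TPM. RNA levels say only which chains were available, and no protein or trimer was measured.

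The chain with the lowest TPM in a library was taken as the limiting chain of a trimer. By gene TPM, LAMC1 was that chain for laminin-311, laminin-321, laminin-511 and laminin-521 in every line. LAMA4 was the lowest for laminin-411 and laminin-421, at 1.56 ± 0.217 TPM for Empty, 7.57 ± 2.46 for NF-YAl and 6.74 ± 0.499 for NF-YAs MTSs. These gene levels, and those per kb that follow, include the short transcripts. The short transcripts took 34.6% of LAMA4 TPM for Empty, 47.0% for NF-YAl and 38.8% for NF-YAs MTSs, so that the rise of full-length LAMA4 was smaller. On the scale of CPM per kb, LAMA4 was at 1.40 for Empty, 5.33 for NF-YAl and 5.36 for NF-YAs MTSs, and both lines were above Empty without overlap (p = 0.1 each, two-sided exact permutation test, 0.15 adjusted over 39 tests). LAMC1 on that scale was at 16.3, 20.8 and 21.8, again with both lines above Empty without overlap and the same p.

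LAMA3 and LAMB3, the members that enter laminin-332, did not keep 1 ratio across the lines. The TPM of LAMB3 over that of LAMA3, also examined after the levels were seen, was 0.510, 0.601 and 0.593 for Empty A, B and C, 0.210, 0.326 and 0.356 for NF-YAl A, B and D, and 0.634, 1.05 and 0.801 for NF-YAs A, B and C. NF-YAl was below Empty and NF-YAs above it, with no overlap between any pair of lines. For each pair p was 0.1, the smallest possible by a two-sided exact permutation test, or 0.136 adjusted over 15 tests.

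LAMA3 has a long transcript type of over 10000 nt, whose product is the α3B chain, and a shorter type of 5000 to 10000 nt, whose product is the α3A chain of laminin-332. In the deposited transcript tables the long type took 46.6 ± 1.45% of LAMA3 TPM for Empty, 49.4 ± 2.64% for NF-YAl and 50.4 ± 2.47% for NF-YAs MTSs (SD, n = 3). The α3A type took 34.6 ± 0.627%, 30.5 ± 1.81% and 31.4 ± 1.46%, with all libraries of both lines below Empty (p = 0.1, two-sided exact permutation test, 0.233 adjusted over 21 tests). In CPM, both types were lower in the lines, the long type at 379 ± 30.5 for Empty, 221.3 ± 44.7 for NF-YAl and 202 ± 18.5 for NF-YAs MTSs, and the α3A type at 146 ± 6.48, 71.2 ± 15.4 and 65.5 ± 3.57. The rest were short transcripts that cannot encode a full chain. Without them, LAMC1 stayed the lowest chain of laminin-311 and laminin-321 in every library. The α3A type alone was at 27.4 to 34.1 TPM in Empty, 14.9 to 19.5 in NF-YAl and 14.7 to 15.7 in NF-YAs libraries. It was above LAMC1 in every Empty library and below LAMC1 in every library of both lines.

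LAMB3 was divided between a transcript of 4064 nt and another of 4310 nt, which were examined after their values were seen. The shorter one took 84.8 ± 2.78% of LAMB3 TPM for Empty, 65.5 ± 9.64% for NF-YAl and 78.1 ± 4.15% for NF-YAs MTSs. Its level was 146 ± 22.9 CPM for Empty, 32.0 ± 10.2 for NF-YAl and 96.5 ± 25.5 for NF-YAs MTSs. The longer one was at 27.0 ± 4.997, 16.6 ± 3.28 and 28.0 ± 4.91 CPM, and its share was higher in all libraries of both lines than in Empty (p = 0.1, two-sided exact permutation test, 0.233 adjusted over 21 tests). The tables do not say which transcript belongs to which of the 3 LAMB3 promoter windows. LAMA4 had full-length transcripts and short transcripts of 767 and 784 nt, and the full-length ones were at 6.56 ± 0.694 CPM for Empty, 20.4 ± 1.84 for NF-YAl and 23.7 ± 3.79 for NF-YAs MTSs.

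Other genes of laminin biology were counted from lists, by the same test. Of all tested genes, 10.02% rose and 9.54% fell in NF-YAl, and 12.1% rose and 10.5% fell in NF-YAs MTSs over Empty. Of 6 hemidesmosome genes, which build the anchor that binds laminin-332, 5 fell and 0 rose in NF-YAl, and 3 fell and 0 rose in NF-YAs MTSs over Empty. At an unadjusted p under 0.05, 1 was higher in NF-YAl and 0 in NF-YAs, and DESeq2 called 0 higher in both. COL17A1, the transmembrane collagen of hemidesmosomes, fell in NF-YAl with a log2FC of -1.72 (SE 0.190, adjusted p = 4.21e-05 by edgeR) and in NF-YAs with -0.86 (SE 0.182, adjusted p = 0.00308 by edgeR). Its level was low, at a mean of 6.28 CPM for Empty, 1.91 for NF-YAl and 3.46 for NF-YAs MTSs. ITGB4, the β4 integrin that binds laminin-332, fell by 0.82 and 0.89 on the log2 scale in NF-YAl and NF-YAs. Of 7 laminin receptor genes, 3 rose and 2 fell in NF-YAl, and 2 rose and 3 fell in NF-YAs. ITGA6 and ITGB4 are counted in both lists and were the 2 receptors that fell in NF-YAl. ITGA7, the α7 integrin of muscle, rose by a log2FC of 1.82 and 1.86, and ITGA6 fell by 0.70 and 0.46. BCAM, a receptor for α5 laminins, fell by 1.32 for NF-YAs and had a log2FC of -0.49 for NF-YAl (adjusted p = 0.108 by edgeR). The median log2FC of the hemidesmosome genes was -0.66 for NF-YAl and -0.29 for NF-YAs.

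Of 8 basement membrane partners, 2 rose and 1 fell in NF-YAl, and 2 rose and 2 fell in NF-YAs MTSs. The collagen IV genes COL4A1 and COL4A2 rose in NF-YAl with log2FC of 1.66 and 1.22 and in NF-YAs with 2.12 and 1.94, and HSPG2, which encodes perlecan, fell by 0.82 and 1.16. Of 12 genes that glycosylate α-dystroglycan, a laminin receptor whose sugar chain binds the α chains, 5 rose in NF-YAl and 5 in NF-YAs, and 0 fell in either, also at an unadjusted p under 0.05 and by DESeq2. POMT2, which starts the sugar chain, rose by 0.99 and 1.13, and POMK, a kinase that acts on it, by 0.78 and 0.82. Of 4 tested proteases that can cleave laminin chains, 3 rose in each line, but not the same 3. BMP1 and MMP14 rose in both, TLL1 in NF-YAl and MMP2 in NF-YAs. TLL1 had a log2FC of -0.40 for NF-YAs (adjusted p = 0.183 by edgeR). MMP2 was at 18, 23 and 23 expected counts in NF-YAs A, B and C and at 0 in Empty. MMP14, a membrane metalloproteinase, rose by 0.93 for NF-YAl and 0.83 for NF-YAs. All changes of this paragraph and the one above are by edgeR at an adjusted p under 0.01, other than the stated values of BCAM for NF-YAl and TLL1 for NF-YAs.

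The genes whose level followed a member most closely over the 9 libraries were named by Pearson's r of log2 CPM, as a description, since the 9 points fall into 3 lines. For LAMA3 these were ZNF75D (r = 0.998), TMEM185A (0.992) and DOPEY2 (0.991). For LAMB3 they were LINC00920 (0.992), CST3 (0.991) and LAP3 (0.984), and for LAMA4 they were GLIPR2 (0.991), LPAR3 (0.987) and KAT7 (0.987). For LAMB1 the closest was RMDN3 (0.991), for LAMB2 MXD4 (0.990), for LAMA5 MZF1 (0.981), for LAMA1 ADD2 (0.982), for LAMC1 TSC1 (0.978) and for LAMA2 TTN-AS1 (0.964).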

How the data were processed

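RNA-seq of PC-3 MTSs was analysed in 9 libraries, 3 per line. The authors aligned stranded total RNA reads to human transcripts of GRCh37/hg19 with Bowtie2 within RSEM, as the submitters' processing notes and the methods state, and deposited expected counts and TPM per gene and transcript, and each transcript's percent of its gene's TPM. The deposited expected counts are RSEM estimates with no normalization, and the deposited TPM are scaled to effective length, in bases, and to 1 library total.

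After rounding, expected counts were fitted in edgeR 4.0.16 (R 4.3.3) (filterByExpr, TMM, quasi-likelihood F tests on 3 groups in 1 fit, Benjamini-Hochberg over 17108 genes). Changed genes had an adjusted p under 0.01, and DEGs also a |log2FC| above 1. CPM per kb used RSEM's effective length. Shares, ratios and limiting chains were compared by two-sided exact permutation tests (scipy 1.17.1). The members, the gene lists and the tests were chosen with earlier results of these data known. All members were named, and from each list up to 3 genes per comparison with the largest |log2FC|, a mean of at least 5 CPM and no overlap, of which the text gives some. MMP2, which was below 5 CPM, is named in addition. The alternatives were DESeq2 1.42.0, no filter, RLE scaling, a minimum of 10 counts per library, 2 groups only, the replicate letter as a block, a length offset, an adjusted p under 0.05, other TPM thresholds and leaving out each replicate. The procedure was run on simulated counts with the same spread for all genes and libraries, and with changes only in genes above 5 CPM. This does not check calls of genes below that level, such as LAMA1 and LAMA2, or lines of unequal spread. Gene positions are those of GENCODE in GRCh37, and promoter windows those of RefSeq in GRCh38.p14. Tables were read with pandas 2.3.3 and figures drawn with matplotlib 3.10.9. A few genes of the lists, and the trimers and shares that need them, are not reported here.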

Additional observations from a re-analysis of the deposited data

Results flagged for a closer look

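The responses of 3 members differed between the lines by edgeR's direct test. LAMA1 differed by a log2FC of -1.97 (NF-YAl against NF-YAs), on 6 to 98 expected counts per library. LAMB3 differed by -1.34 and LAMB1 by -0.51, both with the 3 NF-YAl libraries below the 3 NF-YAs libraries. The causes were not tested.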

How the results depend on the processing

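Of the 9 members, 3 passed in NF-YAl against Empty. Blocking on the replicate letter gave 6, and there were 5 at an adjusted p under 0.05, with 3 to 6 when 1 replicate was left out, where 6 came from the fit without library D of NF-YAl. The added members without library D were LAMA5, LAMB2 and LAMC1. Library D shares its letter with no other library, so that the block also takes it out of the comparisons. No label says what the letters share. Deviations from the line means correlated at -0.0652 to 0.253 in the 7 same-letter pairs, highest for Empty B with NF-YAl B and over 0.1 in 3 pairs, none of them between Empty and NF-YAs, and 7 of the 8 libraries that share a letter correlated best with their own letter. As not every pair was over 0.1, the letters were not taken as pairs. In NF-YAs against Empty the calls of LAMB3 and LAMC1 depend on this choice. In NF-YAs against Empty 4 members passed, 3 to 4 without 1 replicate, 5 by DESeq2, with no filter or with 2 groups only, 6 with the block, and 7 at an adjusted p under 0.05. With the block, LAMB3 passed there, at a log2FC of -0.50 (adjusted p = 0.000395 by edgeR). Member DEGs in NF-YAs against Empty numbered 3 with the length offset, without Empty A and without NF-YAs C, since LAMA3 then went from -0.98 to just past -1. With at least 10 counts required in every library LAMA1 was not tested, and member DEGs numbered 1 in place of 2 in NF-YAs against Empty and 1 in place of 2 in NF-YAl against NF-YAs. Small log2FC changed sign for LAMC1 in NF-YAl against NF-YAs (0.061 with the block, -0.18 to 0.046 without 1 replicate) and for LAMA2 in NF-YAl against Empty (-0.015 to 0.19 without 1 replicate). Of the log2FC of single members under the alternatives, 328 kept their direction and their side of the threshold, 15 newly passed it, 2 no longer passed it and 3 changed sign. The 168 class shares, 108 limiting chains and 126 transcript shares recomputed moved by less than 1 SD between replicates. Leaving out 1 of 3 libraries cannot move a line's mean by 1 SD of that line. For such recomputations this outcome was fixed in advance and says nothing on how stable the values are. Depth limits LAMA1, with as few as 6 counts in a library, and the TPM scale of library D limits comparisons of TPM between libraries. The causes were not tested.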
